A study of Mus musculus with 44 samples.

Results

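The IL12 family subunit genes Il12a, Il12b, Il23a, Il27 and Ebi3 were followed through RNA-seq of BMDMs, the macrophages that mouse bone marrow gives rise to in culture. The genes were taken by symbol and not by their values, and these 5 of 24940 listed genes were found in each of the 4 count tables of the series. The 44 libraries formed 22 groups of 2 replicates.

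The cytokines of this family are built from subunits that pair in several ways. IL12 joins the products of Il12a and Il12b, IL23 joins those of Il23a and Il12b, IL27 joins those of Il27 and Ebi3, and IL35 joins those of Il12a and Ebi3. IL12 drives interferon gamma production by T and NK cells, IL23 maintains T cells that make IL17, and IL27 both promotes and restrains T cell responses. Macrophages and dendritic cells that sense microbes are main sources of IL12, IL23 and IL27, and because Il12b is shared, the supply of Il12a and Il23a bears on which of the first 2 cytokines can form.

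The first table (24 libraries) held cells of NCoR flox/flox mice, called WT, and of NCoR flox/flox mice with LysMCre, called NKO, in which Cre made from the Lyz2 locus deletes the corepressor NCoR in myeloid cells. Each genotype was given vehicle (Veh), KLA, PolyIC, IFNb or IL4 for 6 h, or RANKL for 12 h. KLA (Kdo2 lipid A) is a ligand of TLR4, poly I:C mimics viral RNA and is sensed by TLR3, IFNb is interferon beta and RANKL is the cytokine that drives osteoclast formation. The second table (6 libraries) held wild-type cells with Veh, KLA or KLA together with RGFP966, an inhibitor of the deacetylase HDAC3 (RGFP966_KLA). The third (8 libraries) held Pgc1b flox/flox cells without Cre (Pgc1b_flox) and with LysMCre (Pgc1b_flox_Cre), each with Veh or KLA, Pgc1b being the name used for Ppargc1b, the gene of the coactivator PGC1β. A TBK1 inhibitor table (6 libraries) held wild-type cells as DMSO_Veh, DMSO_KLA and TBK1i_KLA, where TBK1i is an inhibitor of the kinase TBK1. These 3 tables all used 6 h of KLA or vehicle. By the methods, BMDM cultures were kept in low serum for 12 h before the ligand. Both inhibitors were given from the start of that step, so before KLA. The mice were C57BL/6 animals aged 8 to 12 weeks, and the BMDM cultures had M-CSF from conditioned medium and also added M-CSF. The RANKL libraries are labelled BMDM by cell type but Osteoclast in their library names. The methods describe osteoclast cultures as grown in another medium, also with added M-CSF, and name no conditioned medium for them. Nothing in the labels says whether replicates came from separate animals, so the tests measure the spread between these libraries, which may be technical.

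Libraries held 8.32 to 16.8 M gene counts, and 3 counts in a library, the level treated here as the detection limit, equalled 0.141 to 0.500 CPM, the usual count scaled to library size. CPM were scaled within each table, so tables were compared only in fits made jointly. Column names carry date stamps: WT_KLA lay 115 days before most libraries of its table, the RANKL libraries 536 days before, and NKO_KLA 1401 days before WT_KLA. Both NKO_KLA libraries and all 8 libraries of the third table held Y-linked reads, and the other 34 held Xist reads. All 7 macrophage markers examined were over 3 counts in every library, with summed levels of 9162 to 23568 CPM. The 6 neutrophil markers summed to at most 7.66 CPM in the 20 groups without RANKL and to 808 to 1058 CPM in the RANKL groups. The 5 dendritic cell markers summed to 0.134 to 35.4 CPM, highest in NKO_KLA (31.2 and 35.4), where Clec9a and Xcr1 made up most of it and Flt3 and Cd209a stood at 0.18 and 0.09 CPM on average. T cell markers summed to at most 0.405 CPM and B cell markers to at most 8.24 CPM.

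Ncor1 averaged 51.0 to 62.3 CPM in the NKO groups and 136 to 214 CPM in the WT groups. Ppargc1b was not lower in the libraries labelled Pgc1b_flox_Cre, with 3.58 against 3.63 CPM at vehicle and 9.50 against 7.29 CPM with KLA. A total over all exons does not check the deletion of some of them, and which exons are flanked by lox sites is not stated in the labels. The paper examined PGC1β protein in BMDMs of both genotypes by immunoblot, which these mRNA counts do not replace. Lyz2, the gene that carries the Cre and 1 of the 7 macrophage markers, fell with LysMCre in the third table at vehicle (log2 fold change -0.90, SE 0.05) and KLA (-0.87, SE 0.05), and in NKO by 0.62 to 1.54 in every condition but RANKL, where it was under the fold threshold (-0.53, SE 0.09). The summed macrophage markers were lower with LysMCre in all 8 matched pairs of groups, without overlap. Lyz2 is part of this sum, and no sum without it was made. A bulk library cannot tell fewer cells that make an mRNA from less mRNA in each cell, and this applies to each difference that follows.

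Counts were made over the exons of 1 RefSeq transcript per gene in mm10, the same in all tables: NM_008351 of Il12a at chr3:68691424-68698550 on the plus strand (1266 exonic bases), NM_001303244 of Il12b at chr11:44400063-44414677 on the plus strand (2495), NM_031252 of Il23a at chr10:128296140-128298084 on the minus strand (1353), NM_145636 of Il27 at chr7:126589295-126594910 on the minus strand (699), and NM_015766 of Ebi3 at chr17:55952623-55957022 on the plus strand (1164). The 250 bases before the counted start are given for Il12a, Il12b and Ebi3, because Il12a and Il12b form 1 cytokine and yet parted under several treatments, and because Ebi3 was the only subunit gene well expressed at rest. They come from RefSeq promoter sequences of GRCm38.p6, which matched 3 of the 5 genes. Capitals mark matches, on either strand, to a core pattern of NF-kB sites (GGG, then any 5 bases, then CC). They run 5′ to 3′ on the plus strand from chr3:68691174-68691423, chr11:44399813-44400062 and chr17:55952373-55952622.
Il12a: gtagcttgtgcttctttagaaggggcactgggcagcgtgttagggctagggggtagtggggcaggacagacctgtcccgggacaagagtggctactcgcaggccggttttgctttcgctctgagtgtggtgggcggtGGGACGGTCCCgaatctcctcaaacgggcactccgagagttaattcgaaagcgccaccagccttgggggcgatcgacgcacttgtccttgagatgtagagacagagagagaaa
Il12b: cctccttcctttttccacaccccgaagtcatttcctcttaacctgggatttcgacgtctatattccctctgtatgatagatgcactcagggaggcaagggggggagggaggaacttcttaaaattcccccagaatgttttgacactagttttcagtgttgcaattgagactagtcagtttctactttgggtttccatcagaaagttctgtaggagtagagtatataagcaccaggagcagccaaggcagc
Ebi3: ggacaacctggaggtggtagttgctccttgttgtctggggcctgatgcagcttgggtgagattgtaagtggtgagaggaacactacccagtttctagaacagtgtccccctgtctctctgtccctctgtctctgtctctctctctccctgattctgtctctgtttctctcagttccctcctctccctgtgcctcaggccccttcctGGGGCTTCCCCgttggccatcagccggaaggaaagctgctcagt

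The Il12a stretch held 2 overlapping matches, the first at bases -113 to -104 from the start, and the Ebi3 stretch held 2 overlapping matches, the first at bases -44 to -35. The Il12b stretch held none. The pattern is common: 45.8% of 32851 promoter stretches of the same length held at least 1. The pattern of interferon-stimulated response elements (GAAA, any 2 bases, GAAA, in 2.98% of stretches), TTGCNNAA (C/EBP, 9.56%) and TGANTCA (AP-1, 6.75%) were searched on both strands and matched none of the 3 stretches. A missing match says only that these letters are not in this window.

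At rest 4 of the 5 subunit genes were near or under the detection limit and Ebi3 was not. Il12a had 0 counts in both libraries of WT_Veh, NKO_Veh and Veh, and at most 2 counts in any vehicle library. Il23a reached at most 2 counts in a vehicle library, apart from 5 and 1 counts in the Pgc1b_flox_Cre_Veh libraries. Il12b had 0 to 10 counts in the vehicle libraries, apart from 19 in 1 Pgc1b_flox_Cre_Veh library whose replicate had 0. Il27 had 2 to 14 counts. Ebi3, by contrast, stood at 39.9 and 49.3 CPM in WT_Veh, 34.9 and 37.0 in Veh, 40.6 and 41.3 in Pgc1b_flox_Veh, and 34.8 and 38.8 in DMSO_Veh. The beta subunit of IL27 was therefore the one family mRNA measured well above the limit in all vehicle libraries.

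**Figure D1:**
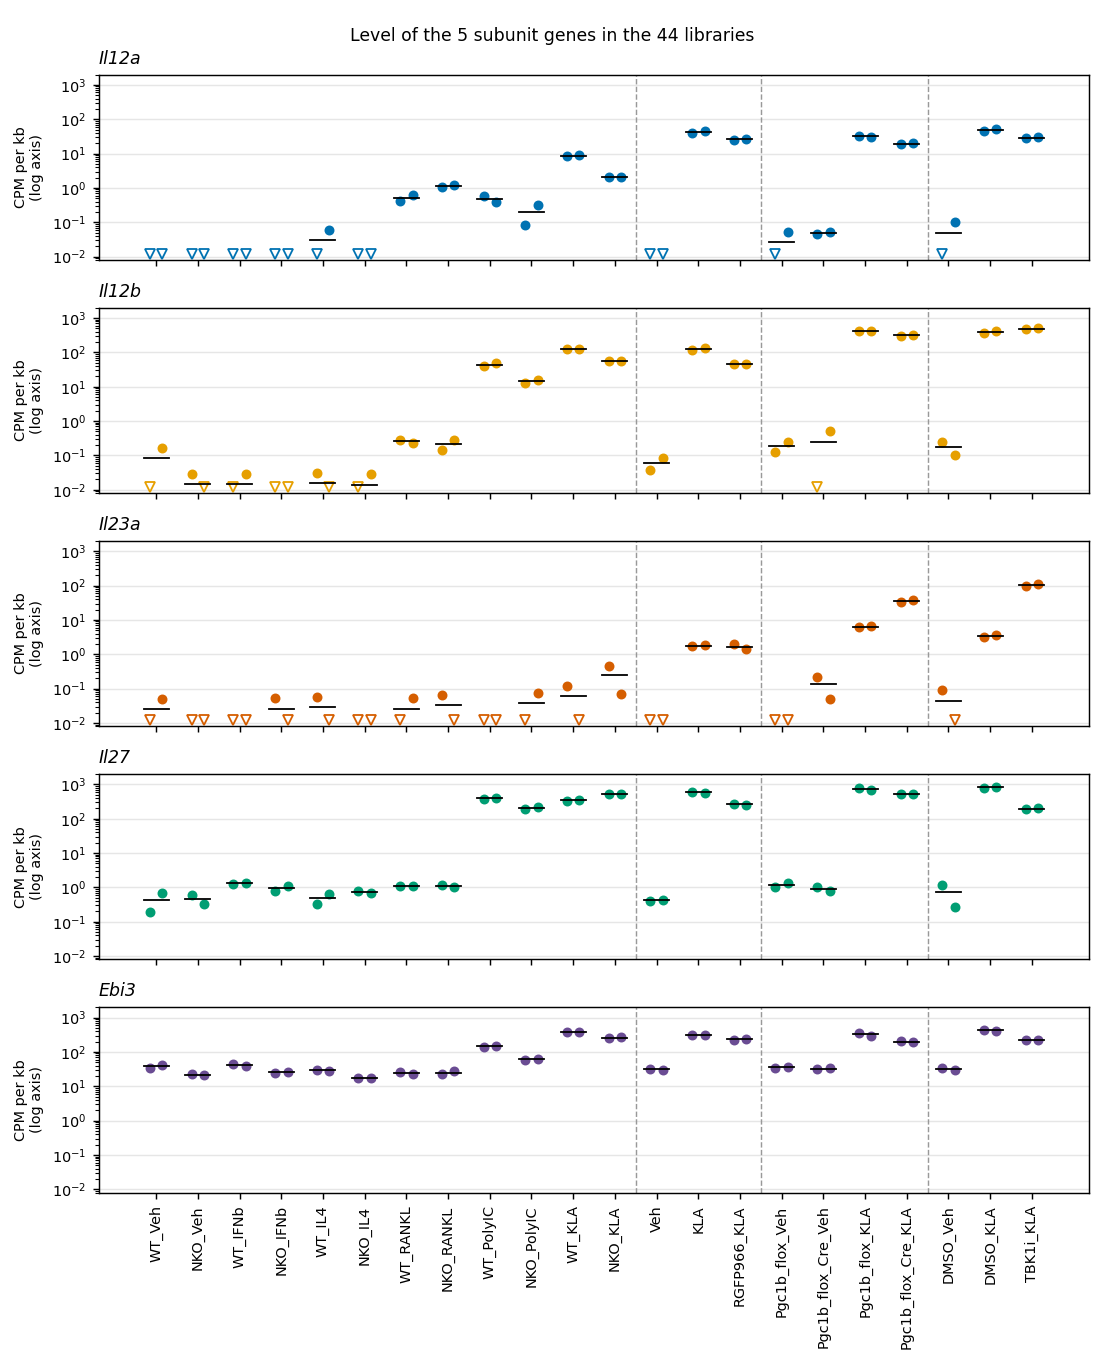
Level of each subunit gene in the 44 libraries, as CPM per kilobase of counted exon on a log axis, by group. Points are libraries, black bars are group means, open triangles at the bottom are libraries with 0 counts, and dashed lines separate the 4 tables. Il12a and Il23a were at or near 0 without a stimulus, whereas Ebi3 lay between 17.7 and 45.8 CPM per kb in the libraries without KLA or poly I:C.

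KLA raised the subunit genes in every table, to very different levels. A gene was called changed when edgeR's quasi-likelihood test gave an adjusted p below 0.05 and the fold change was above 1.5. All 4 subunit genes tested in the first table were called higher in WT_KLA, where 25.4% of all genes tested were called higher, and in NKO_KLA, where 28.4% were. Il23a, with at most 7 counts in any library of that table, did not pass the filter on low counts there. All 5 were called higher with KLA in the second table (27.9% of genes), in Pgc1b_flox (22.8%) and Pgc1b_flox_Cre (19.2%) of the third, and in DMSO_KLA (29.6%). They were also higher than vehicle in RGFP966_KLA (28.0%) and TBK1i_KLA (26.8%), so that neither inhibitor brought any of the 5 back to the vehicle level.

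Il12a, the subunit particular to IL12 and IL35, reached 10.6 and 11.5 CPM in WT_KLA, 51.6 and 55.8 in KLA, 39.7 and 40.4 in Pgc1b_flox_KLA, and 58.6 and 67.2 in DMSO_KLA. No KLA library overlapped a vehicle library. Against vehicle libraries at 0, with the limit of 3 counts per library in their place, it was at least 53.8-fold higher in WT_KLA and at least 366-fold higher in KLA. In Pgc1b_flox_KLA and DMSO_KLA, with 1 and 2 counts in all at vehicle, the ratios were 1091 (95% exact counting interval 195 to 43170) and 1023 (283 to 8458).

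Il12b, the subunit shared by IL12 and IL23, reached 307 and 308 CPM in WT_KLA, 290 and 343 in KLA, 1034 and 1065 in Pgc1b_flox_KLA, and 940 and 1076 in DMSO_KLA. Its log2 fold changes were 10.48 (SE 0.19) in WT_KLA, 11.07 (0.34) in Pgc1b_flox_KLA and 11.16 (0.09) in DMSO_KLA, and the KLA table lay between them. These sizes rest on the few vehicle counts far more than the SEs show. Leaving out 1 vehicle library moved the value to 9.51 (without replicate 1) or 14.86 (without replicate 2) in WT_KLA, to 10.68 to 11.91 in DMSO_KLA, and to 10.53 to 11.60 in KLA.

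Il23a, the subunit particular to IL23, was the lowest of the 5 with KLA. Its 2 libraries held 1 and 0 counts in WT_KLA, 24 and 30 in KLA, 79 and 71 in Pgc1b_flox_KLA, and 40 and 43 in DMSO_KLA. Control cells given KLA thus held 0 to 8.91 CPM of it. It was at least 16.2-fold higher than vehicle in KLA and at least 38.8-fold higher in Pgc1b_flox_KLA, and 76.4-fold (95% exact counting interval 20.5 to 641) higher in DMSO_KLA, where vehicle had 2 counts.

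Il27, the alpha subunit of IL27, reached 236 and 249 CPM in WT_KLA, 397 and 416 in KLA, 466 and 556 in Pgc1b_flox_KLA, and 566 and 601 in DMSO_KLA. Its log2 fold changes lay between 9.23 (SE 0.14, Pgc1b_flox) and 10.39 (SE 0.13, KLA). They too rest on few vehicle counts: the value was 8.95 without WT_Veh replicate 1 and 10.68 without replicate 2 in WT_KLA, and 11.51 without DMSO_Veh replicate 1 and 9.41 without replicate 2 in DMSO_KLA. Ebi3, its partner, reached 440 and 446 CPM in WT_KLA, 356 and 360 in KLA, 341 and 416 in Pgc1b_flox_KLA, and 488 and 499 in DMSO_KLA. From its higher resting level its log2 fold changes were 3.31 (SE 0.08), 3.31 (0.07), 3.21 (0.09) and 3.74 (0.05).

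Per kilobase of counted exon, so that the genes can be compared with each other, control KLA groups averaged 347 to 835 CPM per kb of Il27, 307 to 424 of Ebi3, 123 to 421 of Il12b, 8.74 to 49.7 of Il12a, and 0.06 to 6.33 of Il23a. Il12b exceeded its IL12 partner Il12a by 13.6 and 14.7 times in the WT_KLA libraries, 2.86 and 3.12 times in KLA, 13.0 and 13.6 times in Pgc1b_flox_KLA, and 8.13 and 8.14 times in DMSO_KLA. It exceeded its IL23 partner Il23a by 64.8 to 117 times in the 6 control KLA libraries of the other 3 tables. Il27 and Ebi3 were close to each other, with ratios of 0.880 and 0.942 in WT_KLA and 1.86 to 2.28 in the 6 others. The shared subunit Il12b thus stood in excess over Il12a in all 8 control KLA libraries, and over Il23a in the 6 in which Il23a passed 3 counts.

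The ratios among Il12a, Il12b, Il23a and Il27 were tested for a change with KLA over the control libraries of the 4 tables (8 with KLA, 8 with vehicle, counts plus 0.5 on a log2 scale, exact 2-sided permutation of the labels within tables, 6 pairs). The smallest p this design allows is 0.00154. Il12b rose relative to Il27 by 1.23 (exact permutation p = 0.00154, adjusted 0.00231), higher in 4 of 4 tables. Il12a and Il12b each rose relative to Il23a, by 4.17 and 5.66, and Il23a fell relative to Il27 by 4.42, in 4 of 4 tables each and with the same exact permutation p of 0.00154 (adjusted 0.00231). In the first table Il23a had 1 count in all with KLA and 1 at vehicle. Its 3 changes there (7.08, 10.0 and -8.40) therefore came from the other gene alone. Leaving that table out gave 3.21, 4.20 and -3.10 (exact permutation, adjusted p = 0.0139 each). Il23a was at or near 0 in the vehicle libraries of the other tables too, so these ratios do not fix how far it rose itself. Il12a fell relative to Il12b by 1.48 (exact permutation p = 0.0278, adjusted 0.0333), lower in 3 of 4 tables and 0.19 higher in the second. Without the first table, in which WT_KLA and WT_Veh differ in date stamp, this last change was -0.99 with an adjusted p of 0.178. The Il12a to Il27 ratio did not pass (-0.25, exact permutation p = 0.701). With vehicle counts this low the ratios that involve Il12a or Il23a lean on the added constant, and with 3 added in place of 0.5 the Il12a to Il27 change became -1.98 and passed (adjusted p = 0.00185).

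**Figure D2:**
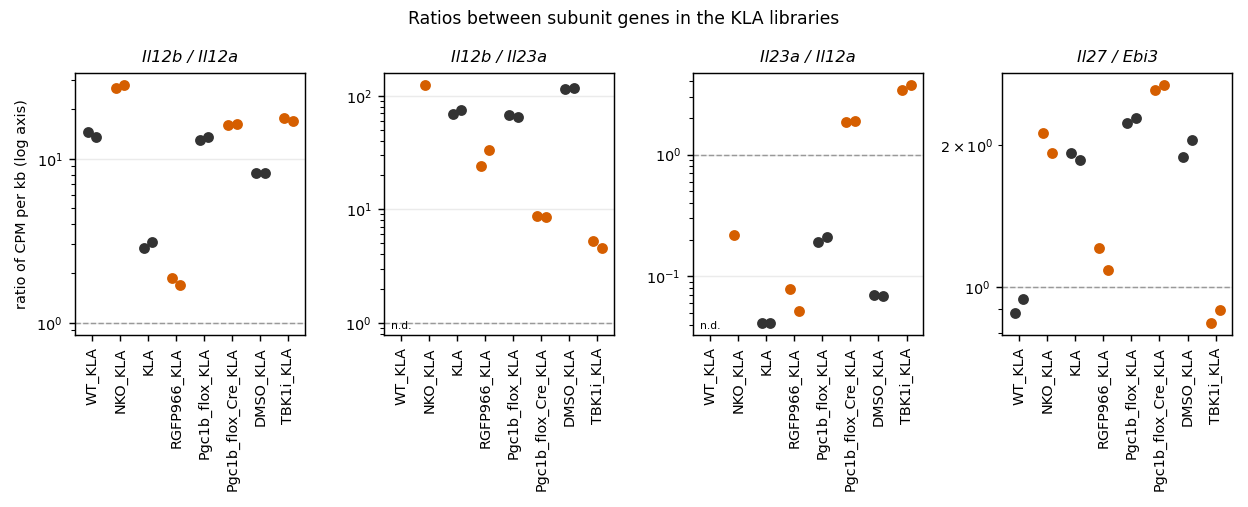
Ratios between subunit genes in the 16 KLA libraries, as CPM per kb of one over CPM per kb of the other on log axes, for Il12b over Il12a, Il12b over Il23a, Il23a over Il12a, and Il27 over Ebi3. Dark points are control libraries, orange points are knockout or inhibitor libraries, the dashed line marks equal levels, and libraries with 3 counts or fewer of a gene are not drawn. Il23a exceeded Il12a in the Pgc1b_flox_Cre_KLA and TBK1i_KLA libraries and in none of the others drawn.

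TBK1i with KLA moved the subunits in opposite directions: Il23a rose, Il12a, Il27 and Ebi3 fell, and Il12b was not called. Of the 5 genes 1 was called higher and 3 lower between TBK1i_KLA and DMSO_KLA, where 33.3% of all genes were called in either direction. Il23a went from 4.42 and 4.97 CPM to 128 and 149 CPM, or 29.3-fold (log2 fold change 4.88, SE 0.12), and its groups stood far apart. Il27 went from 566 and 601 to 134 and 139 CPM (log2 fold change -2.09, SE 0.05), a fall of 4.27-fold. Ebi3 went from 488 and 499 to 258 and 266 CPM (-0.91, SE 0.04), and Il12a from 58.6 and 67.2 to 35.1 and 37.3 CPM (-0.80, SE 0.09, adjusted p = 1.69e-16). Il12b was 940 and 1076 CPM without and 1228 and 1245 CPM with the inhibitor, a log2 difference of 0.29 (SE 0.04, adjusted p = 5.61e-15) that stayed under the fold threshold. The groups of all 5 genes were free of overlap. For Il23a, Il27 and Ebi3 the adjusted p was 3.16e-94 or smaller.

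Expressed as ratios per length, Il23a stood at 0.069 and 0.070 of Il12a in the DMSO_KLA libraries and at 3.41 and 3.73 times Il12a in the TBK1i_KLA libraries. The excess of Il12b over Il23a went from 115 and 117 times to 4.55 and 5.21 times. The excess of Il12b over Il12a went from 8.13 and 8.14 to 16.9 and 17.8 times. Il27 over Ebi3 went from 1.89 and 2.05 to 0.841 and 0.896. With 2 libraries against 2 an exact permutation test of such a ratio cannot go below 0.333, so these are descriptions.

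Regulators and receptors from lists chosen for this family were read beside the subunits. Of 15 regulator genes, 0 were called higher and 7 lower with TBK1i, where 33.3% of all genes were called in either direction. Their median log2 fold change was -0.42 against 0.01 over all genes. Ifnb1, the gene of interferon beta, averaged 4.86 CPM in DMSO_KLA and had 0 counts in both TBK1i_KLA libraries. Irf8 and Irf1, interferon regulatory factors known to act on Il12a, Il12b and Il27, fell by 3.06 (SE 0.06) and 0.78 (SE 0.04) on the log2 scale. Atf3, a repressor of inflammatory genes, fell by 3.10 (SE 0.05), and Il10, a cytokine that dampens IL12 and IL23 production, fell by 2.54 (SE 0.21). The NF-kB genes Rel, Rela and Nfkb1 differed by 0.17, 0.17 and 0.22 and were under the fold threshold. Of the 11 receptor and transducer genes 9 were tested, with 1 higher and 3 lower. Among the lower ones Stat3, which IL23 and IL27 signal through, fell by 1.21 (SE 0.04) and Tyk2 by 1.08 (SE 0.05), and Il6st, the shared receptor chain of IL27, rose by 1.04 (SE 0.07). Il12rb1, the receptor chain shared by IL12 and IL23, averaged 1.19 CPM in DMSO_KLA and was at 0 in TBK1i_KLA. The dendritic cell markers summed to 2.78 and 3.75 CPM in DMSO_KLA and 5.31 and 6.31 in TBK1i_KLA. Of them Zbtb46 averaged 0.17 CPM in DMSO_KLA and 4.36 CPM in TBK1i_KLA, while Flt3 and Cd209a were at 0 in both. Clec9a and Xcr1 together went the other way, being lower on average in TBK1i_KLA. The part of such cells in the result was not tested.

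**Figure D3:**
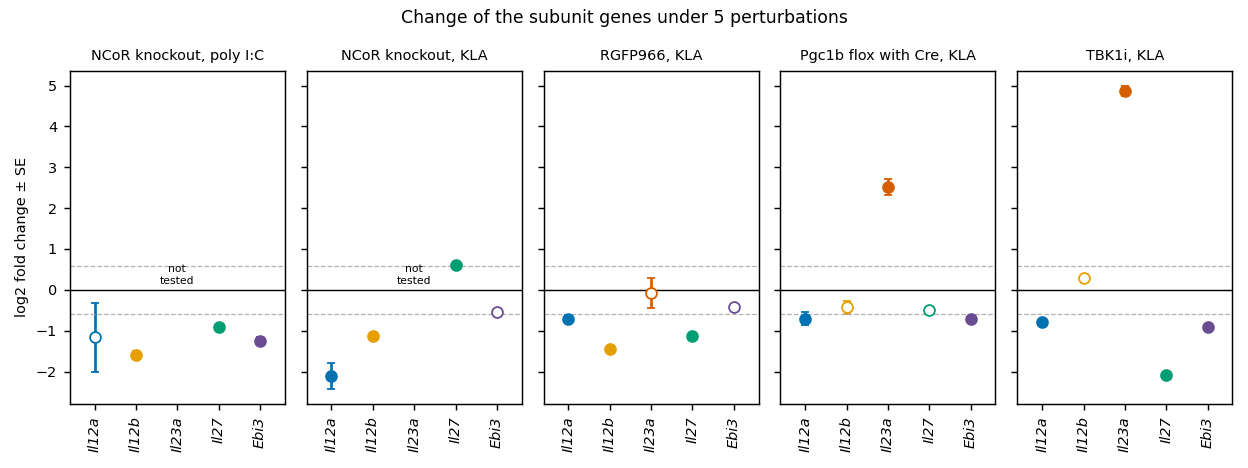
Log2 fold change with its SE of each subunit gene under 5 perturbations, from edgeR, with filled points for calls and open points for differences that were not called. Dashed lines mark a 1.5-fold change. Il23a rose with TBK1i (4.88) and in the Pgc1b_flox_Cre libraries (2.52). Il12a was called lower in 4 of the 5 panels, and Il12b in the 2 NCoR knockout panels and with RGFP966.

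In the libraries labelled Pgc1b_flox_Cre Il23a also rose with KLA, and Il12a and Ebi3 fell. Of the 5 genes 1 was called higher and 2 lower against Pgc1b_flox_KLA (26.1% of all genes called). Il23a went from 8.22 and 8.91 to 46.4 and 51.5 CPM, or 5.73-fold (log2 fold change 2.52, SE 0.19, adjusted p = 2.79e-13). Il12a went from 39.7 and 40.4 to 23.6 and 25.4 CPM (-0.71, SE 0.16, adjusted p = 0.000415). Ebi3 went from 341 and 416 to 223 and 236 CPM (-0.72, SE 0.08, adjusted p = 8.79e-10), a difference of -0.55 and under the fold threshold without Pgc1b_flox_KLA replicate 1. The differences of Il27 (466 and 556 against 359 and 370 CPM, -0.49, SE 0.07) and Il12b (1034 and 1065 against 744 and 812 CPM, -0.43, SE 0.16, adjusted p = 0.076) were not called. Again no groups overlapped. Per length Il23a stood at 0.191 and 0.210 of Il12a without Cre and at 1.84 and 1.90 times Il12a with Cre, and the excess of Il12b over Il23a went from 64.8 and 68.3 times to 8.55 and 8.69 times.

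At vehicle none of the 5 was called between these genotypes (0.303% of all genes were, and by edgeR 1 of the 5, Il23a, had an unadjusted p under 0.05, and DESeq2 called 0), with Il23a at 5 and 1 counts with Cre and 0 and 0 without. The Cre effect itself differed between KLA and vehicle only for Ebi3 among the 5 (difference of log2 fold changes -0.60, SE 0.12, adjusted p = 0.000152, 22.8% of genes called), and this call was lost without Pgc1b_flox_KLA replicate 1 (-0.43), Pgc1b_flox_Cre_KLA replicate 2 (-0.56) or Pgc1b_flox_Cre_Veh replicate 2 (-0.53). For Il23a the difference was -1.76 (SE 1.39, adjusted p = 0.371), on 6 vehicle counts in all. Of the 15 regulators 1 was higher and 6 lower with Cre at KLA, where 26.1% of all genes were called in either direction (list median -0.20 against 0.00 over all genes). Nfkbiz, an inducible NF-kB cofactor, rose by 1.02 (SE 0.06), and Irf8, Cebpb, Nfil3, Atf3, Maf and Il10 fell, Il10 by 0.80 (SE 0.19) and Maf by 1.84 (SE 0.06). Ifnb1 differed by 0.42 (SE 0.32, adjusted p = 0.30). Of the 11 receptors and transducers 1 was higher (Il12rb2, 0.88, SE 0.21) and 5 lower, among them Stat3 (-1.55, SE 0.07) and Tyk2 (-0.88, SE 0.08). The dendritic cell markers summed to 5.27 and 6.66 CPM in Pgc1b_flox_KLA and 7.93 and 10.6 in Pgc1b_flox_Cre_KLA, Zbtb46 making 0.65 and 5.33 of the averages. The remaining markers together were lower on average with Cre. The part of such cells in the result was not tested.

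RGFP966 with KLA lowered both subunits of IL12 and Il27, and Il23a was not called. Of the 5 genes 3 were called lower and 0 higher against KLA alone (25.4% of genes called in either direction). Il12b went from 290 and 343 to 114 and 117 CPM, a fall of 2.75-fold (log2 fold change -1.45, SE 0.07, adjusted p = 2.67e-33). Il27 went from 397 and 416 to 177 and 193 CPM (-1.14, SE 0.06, adjusted p = 3.39e-29), and Il12a from 51.6 and 55.8 to 31.8 and 33.8 CPM (-0.71, SE 0.09, adjusted p = 4.78e-10). Ebi3 was 356 and 360 against 265 and 271 CPM (-0.42, SE 0.06, adjusted p = 2.00e-09), under the fold threshold. Il23a was 2.29 and 2.47 against 1.88 and 2.65 CPM, groups that overlap (-0.07, SE 0.37, adjusted p = 0.884). With this SE a 1.5-fold difference of Il23a could have been missed. The RGFP966_KLA replicate 2 library carries a date stamp 14 days after the others of its table.

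Because Il12b fell further than Il12a, its excess over Il12a went from 2.86 and 3.12 times to 1.71 and 1.88 times, and because Il27 fell further than Ebi3, their ratio went from 1.86 and 1.93 to 1.09 and 1.21. Of the 15 regulators 0 were higher and 4 lower, where 25.4% of all genes were called in either direction (list median -0.26 against 0.03 over all genes). Nfkb1 fell by 0.66 (SE 0.06), Nfil3 by 0.94 (SE 0.10), Maf by 0.59 (SE 0.06) and Ifnb1 by 2.16 (SE 0.37). Of the 11 receptors and transducers Stat4, the transducer of IL12, rose by 1.45 (SE 0.26), while Il23r and Stat3, which IL23 signals through, fell by 2.04 (SE 0.52) and 0.71 (SE 0.06).

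In the NCoR knockout with poly I:C the called subunits all moved in 1 direction. Of the 4 genes tested 3 were called lower and 0 higher between NKO_PolyIC and WT_PolyIC, where 5.93% of all genes were called. Il12b went from 101 and 120 to 33.1 and 40.2 CPM (log2 fold change -1.59, SE 0.10, adjusted p = 1.76e-15), Ebi3 from 163 and 172 to 69.2 and 72.4 CPM (-1.24, SE 0.08, adjusted p = 6.23e-16), and Il27 from 265 and 279 to 134 and 157 CPM (-0.90, SE 0.06, adjusted p = 1.59e-18). Il12a had only 6 and 4 counts in WT and 1 and 4 in NKO (-1.16, SE 0.84, adjusted p = 0.385), and Il23a had at most 1. The libraries of this comparison share a date stamp. The dendritic cell markers summed to 14.6 and 17.1 CPM in WT_PolyIC and 9.50 and 11.5 in NKO_PolyIC. The macrophage markers, Lyz2 included, summed to 15792 and 16061 against 12811 and 12997 CPM. The part of either in the result was not tested. Poly I:C itself had raised the 4 tested genes in both genotypes (47.2% of genes called in either direction in WT and 43.1% in NKO), the call of Il12a in NKO being lost without NKO_Veh replicate 2 or NKO_PolyIC replicate 2. In WT, the log2 fold change of Il27 was 9.74 (SE 0.14) with poly I:C and 9.57 (SE 0.15) with KLA, whereas Il12a reached 0.48 and 0.71 CPM with poly I:C and 10.6 and 11.5 with KLA. Of the regulators Il10 and Ifnb1 were lower in NKO_PolyIC, by 0.66 (SE 0.16) and 1.31 (SE 0.30), and the other 13 of 15 were not called (list median -0.21 against 0.00 over all genes).

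With KLA the NCoR knockout comparison gave a mixed picture, and its groups differ in more than genotype. Of the 4 genes tested 2 were called lower and 1 higher between NKO_KLA and WT_KLA, where 40.0% of all genes were called. Il12a was 10.6 and 11.5 CPM in WT_KLA and 2.57 and 2.58 in NKO_KLA (log2 fold change -2.10, SE 0.32, adjusted p = 9.64e-08). Il12b was 307 and 308 against 137 and 142 CPM (-1.14, SE 0.08, adjusted p = 3.36e-15). Il27 was 236 and 249 against 367 and 368 CPM (0.60, SE 0.06, adjusted p = 1.63e-13), a rise just over the fold threshold that fell under it with DESeq2 or its size factors (0.58 each), with a filter on a mean of 5 CPM (0.58), with only the compared groups (0.56) or without WT_KLA replicate 1 (0.57). Ebi3 was 440 and 446 against 289 and 317 CPM (-0.55, SE 0.07, adjusted p = 2.21e-09), just under the threshold. The stamps of these groups lie 1401 days apart and the sex-linked reads differ, so that genotype, date stamp and sex of the source cannot be told apart in this comparison.

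The KLA libraries of the other tables were used as further controls in a joint fit. NKO_KLA differs from all 3 of these groups in table and date stamp, and from KLA and DMSO_KLA in sex-linked reads, so genotype cannot be told apart from these here either. Against each of them 3 to 5 of the 5 subunit genes were lower in NKO_KLA: 3 against KLA (23.9% of all genes called lower), 3 against Pgc1b_flox_KLA (21.1%) and 5 against DMSO_KLA (22.5%). Il12a was lower by 4.70, 4.00 and 4.68, Il12b by 1.50, 2.96 and 2.92, and Il23a by 3.00, 4.57 and 3.72. Against WT_KLA, whose own log2 difference in Il23a from these controls was -4.90, -6.47 and -5.62, NKO_KLA had 8 counts of Il23a to 1 (ratio 4.38, 95% exact counting interval 0.587 to 194), an interval that includes no difference. Il27 changed direction, with log2 fold changes of -0.47 (SE 0.06), -0.53 (SE 0.06) and -0.74 (SE 0.06), called only against DMSO_KLA. Ebi3 differed by -0.56, -0.38 and -0.78, also called only against DMSO_KLA. Il12a and Il12b were called lower in NKO_KLA against all 4 control groups, the direction of Il27 depended on the control, and Il23a was not tested against WT_KLA.

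WT_KLA itself stood apart from the other control KLA libraries in the same fit. With joint scaling Il12a was 8.18 and 8.84 CPM in WT_KLA and 30.4 to 52.3 CPM in the 6 other control libraries. Il27 was 181 and 191 CPM against 358 to 468 CPM. Il23a was at 0.126 CPM and 0 against 2.12 to 6.83 CPM. Il12b was 236 and 237 CPM, against 269 and 317 in KLA, 795 and 816 in Pgc1b_flox_KLA, and 731 and 838 in DMSO_KLA. Of the 5 genes 3 were called lower in WT_KLA against KLA (2.72% of all genes called lower), 4 against Pgc1b_flox_KLA (11.3%) and 4 against DMSO_KLA (6.60%). Ebi3 was called in none (0.04, 0.23 and -0.17), and Il12b was not called against KLA (-0.31, SE 0.07). WT_KLA cells carried NCoR flox/flox alleles and the others did not, and genotype and table cannot be told apart.

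**Figure D4:**
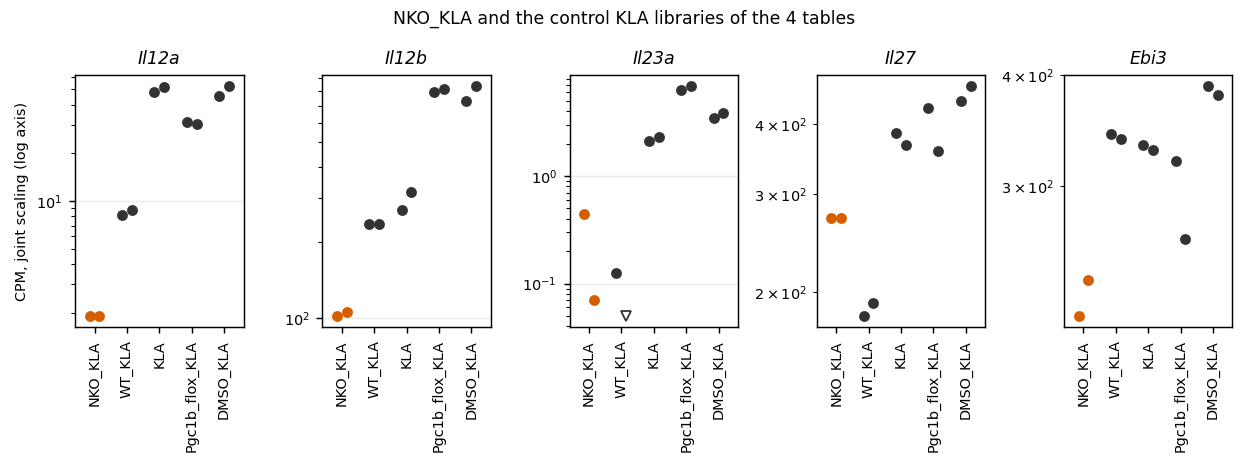
CPM of each subunit gene in the NKO_KLA libraries (orange) and in the control KLA libraries of the 4 tables (dark), scaled jointly, on log axes that differ between panels. The open triangle is a library with 0 counts. WT_KLA lay under the 6 other controls for Il12a, Il12b, Il23a and Il27. NKO_KLA lay under all controls for Il12a, Il12b and Ebi3 but above WT_KLA for Il27.

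Of the 15 regulators 5 were higher and 1 lower in NKO_KLA against WT_KLA, near the 40.0% of all genes called (list median 0.04 against 0.07 over all genes). Irf8 averaged 553 CPM in WT_KLA and 2436 CPM in NKO_KLA (log2 fold change 2.14, SE 0.06), Il10 rose by 1.07 (SE 0.09), and Ifnb1 fell by 1.75 (SE 0.36). Of the 11 receptors and transducers 2 were higher and 2 lower, also near that share. Il12rb1 averaged 2.73 CPM in WT_KLA and 91.8 CPM in NKO_KLA (5.07, SE 0.18). These libraries also held the most Clec9a (22.0 CPM on average, against 1.49 in WT_KLA) and Xcr1 (10.4 against 2.89), and the part of such cells was not tested.

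The knockout effect was compared between conditions by interaction terms. For Il27 it was 1.50 higher with KLA than with poly I:C (SE 0.09, adjusted p = 6.03e-23) and for Ebi3 0.70 higher (SE 0.10, adjusted p = 2.93e-07), with 39.1% of genes called, and this contrast was added after the levels were seen. For Il12b it was 0.45 higher (SE 0.13), under the fold threshold. The KLA side of it rests on the comparison with different stamps. Against the effect at vehicle, no subunit gene was called at KLA (36.9% of genes called), poly I:C (3.24%), IFNb (0.604%) or IL4 (0.604%), where by edgeR only Ebi3, at KLA and at poly I:C, had an unadjusted p under 0.05 and DESeq2 called 0. For Il12a, Il12b and Il27 the few vehicle counts left such terms with wide errors.

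Ebi3 was the only subunit gene whose resting level allowed the knockout to be read without a stimulus, and it was lower there. It went from 39.9 and 49.3 CPM in WT_Veh to 25.1 and 25.8 in NKO_Veh (log2 fold change -0.81, SE 0.09, adjusted p = 6.60e-09), from 45.7 and 53.3 to 28.8 and 31.1 with IFNb (-0.73, SE 0.09, adjusted p = 7.62e-08), and from 33.1 and 35.0 to 20.6 and 20.7 with IL4 (-0.72, SE 0.10, adjusted p = 1.44e-06). The groups did not overlap. The summed macrophage markers, Lyz2 included, were lower in the same comparisons. They were at 16781 and 17169 against 11166 and 11429 CPM at vehicle, 15236 and 15270 against 11501 and 11533 with IFNb, and 14353 and 14497 against 11304 and 11534 with IL4. Their part in the result was not tested. Ebi3 was the 1 subunit gene called in each of these comparisons, where 6.21%, 3.80% and 4.24% of all genes were called. With RANKL it was 26.2 and 30.8 against 25.7 and 31.7 CPM, overlapping groups (0.00, SE 0.11), and there 0 of 4 subunit genes were called by edgeR (13.2% of genes, Il12a alone having an unadjusted p under 0.05) or DESeq2. The knockout effect on Ebi3 differed between RANKL and vehicle by 0.81 (SE 0.14, adjusted p = 1.84e-05), the single call among the 4 genes (14.2% of genes called).

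IFNb and IL4 moved the subunits little. With IFNb, Il27 was called higher in WT (1 of 4 genes, 6.47% of all genes called), from 0.14 and 0.48 to 0.91 and 0.95 CPM (log2 fold change 1.56, SE 0.50, adjusted p = 0.0138), and the call was lost without either WT_IFNb replicate or WT_Veh replicate 1. In NKO it was 0.23 and 0.43 against 0.57 and 0.76 CPM (1.03, SE 0.53, adjusted p = 0.155), and 0 of 4 were called by edgeR (8.38% of genes) or DESeq2, Ebi3 alone having an unadjusted p under 0.05. With IL4, 0 of 4 were called in either genotype by edgeR (13.1% and 12.1% of genes) or DESeq2, and Ebi3, which alone had an unadjusted p under 0.05, stayed under the fold threshold (-0.39, SE 0.09, and -0.30, SE 0.11).

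RANKL brought small rises from near 0. In WT all 4 tested genes were called, 3 higher and Ebi3 lower (43.8% of all genes called), and in NKO 3 were called higher (45.3%). Il12a had 8 and 11 counts in WT_RANKL and 15 and 15 in NKO_RANKL against 0 in all 4 vehicle libraries, at least 3.12-fold and at least 7.51-fold higher. Il12b had 11 and 8 counts in WT_RANKL against 0 and 6, and Il27 12 and 11 against 2 and 7, and both calls in WT were lost without either WT_RANKL replicate or without WT_Veh replicate 1. In NKO, both were lost without NKO_Veh replicate 2 or NKO_RANKL replicate 2, and that of Il27 also without NKO_RANKL replicate 1. Ebi3 fell from 39.9 and 49.3 to 26.2 and 30.8 CPM in WT (-0.64, SE 0.09, adjusted p = 8.52e-08), under the fold threshold without WT_Veh replicate 2 (-0.48) or WT_RANKL replicate 2 (-0.53). The RANKL libraries differ from vehicle in date stamp, in time (12 h against 6 h), in being named Osteoclast where the vehicle libraries are named BMDM, and in neutrophil markers, which were at most 7.66 CPM in sum elsewhere and at least 808 CPM here, and these cannot be told apart from the ligand.

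Within the first table the groups can be ranked for each gene. For Il12a the order was WT_KLA (11.1 CPM), NKO_KLA (2.57), NKO_RANKL (1.44), WT_RANKL (0.65), WT_PolyIC (0.60) and NKO_PolyIC (0.26), then groups at or near 0, and of these neighbours only WT_RANKL and WT_PolyIC overlapped. For Il12b it was WT_KLA (308), NKO_KLA (140), WT_PolyIC (110) and NKO_PolyIC (36.7), none overlapping, then 8 groups under 1 CPM. For Il27 it was NKO_KLA (367), WT_PolyIC (272), WT_KLA (242) and NKO_PolyIC (146), none overlapping, then 8 groups under 1 CPM. For Ebi3 it was WT_KLA (443), NKO_KLA (303), WT_PolyIC (168) and NKO_PolyIC (70.8), none overlapping, and then WT_IFNb (49.5) and WT_Veh (44.6), which overlapped, with NKO_IL4 last (20.7). Of these 4 genes only Il12a had RANKL libraries at or above the level of the poly I:C libraries, with 8 to 15 counts per RANKL library and 1 to 6 per poly I:C library.

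The genes whose log2 group means followed each subunit most closely over the 12 groups of the first table were picked by Pearson's r, as a description over groups that share libraries and scaling. For Il12a they were Cebpb (r = 0.981), Gfi1 (0.980) and Inhba (0.975). For Il12b they were Crlf3 (0.995), Mir155hg (0.992) and Ptgs2 (0.989), for Il27 Cxcl11 (0.996), Katna1 (0.996) and Mir6978 (0.995), and for Ebi3 Gm16712 (0.999), Mab21l3 (0.985) and Psd4 (0.981). Among the subunits themselves Il12b and Il27 were the closest pair (0.980), and Il12a and Il27 the most distant (0.692).

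Over the 10 comparisons of a knockout or inhibitor with its control, Ebi3 was called lower in 6, Il12a in 4, and Il12b and Il27 in 3 each, Il27 being called higher in 1. Il23a, tested in 4 of them, was called higher in 2 and lower in none. In the NCoR knockout comparisons at vehicle, IFNb and IL4, where Ebi3 was called, Il12a, Il12b and Il27 held few counts. The tallies therefore do not rank the genes. The share of all genes called ran from 0.303% to 40.0% over the 10 comparisons. These comparisons share the WT or NKO label or the KLA treatment in part, and no test was made over them.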

How the data were processed

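RNA-seq libraries of mouse BMDMs were analysed from 4 deposited tables of raw counts. The authors aligned reads to mm10 with STAR and counted them over the exons of 1 transcript per gene with HOMER, without normalization. The kit keeps strand, but the recorded counting command names no strand option, so overlapping antisense reads may be included. Columns were assigned to groups by their labels.

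Each table was fitted with edgeR 4.0.16 (R 4.3.3) after filterByExpr and TMM scaling, by robust quasi-likelihood tests over all groups of the table with Benjamini-Hochberg adjustment, and tested on simulated data. A call needed an adjusted p under 0.05 and a fold change over 1.5. KLA libraries of all tables were also fitted jointly (10864 genes), chosen in part after seeing the data. Subunit ratios were tested by exact permutation within tables. Counting intervals cover counting error only. Alternatives were DESeq2 1.42.0, its size factors, other filters, only the compared groups, a replicate block, other pseudocounts and leaving out each library. Replicate numbers did not pair libraries.

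The members and lists were chosen with earlier results of these data known. The genes named are the 5 subunits, the listed receptors and regulators that were called or that bear on a subunit, and the 3 genes closest to each subunit by Pearson's r. Promoter sequences from RefSeq matched 3 of the 5 genes. One gene of the receptor and transducer list is counted but not reported here by its values.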

Additional observations from a re-analysis of the deposited data

Results flagged for a closer look

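In 4 cases the effect of a deletion on a subunit gene differed between treatments by an interaction test in edgeR. The effect of the NCoR knockout on Ebi3 was 0.81 higher on the log2 scale with RANKL than with vehicle (1 of 4 subunit genes called, 14.2% of all genes). Its effect on Il27 was 1.50 higher, and its effect on Ebi3 0.70 higher, with KLA than with poly I:C (2 of 4 called, 39.1% of all genes). The KLA libraries of both genotypes carry other date stamps than the poly I:C libraries. No subunit gene was called for the knockout effect at KLA, poly I:C, IFNb or IL4 against that at vehicle. The Cre effect on Ebi3 in the Pgc1b table was -0.60 at KLA relative to vehicle (1 of 5 called, 22.8% of all genes). This call was lost in 3 of the 8 fits that left out 1 library.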

How the results depend on the processing

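Depth limits Il12a and Il23a most, since vehicle libraries held 0 to 5 counts of them. Of the counts of subunit genes called and the ratio tests, 235 values under alternatives other than leaving out a library were scored as the same. For counts this score allowed a change of up to 1.5-fold, so single genes could still cross the threshold. Of the rest, 8 counts moved, 1 test passed anew and 2 no longer passed. For NKO_KLA against WT_KLA, 3 calls became 1 with the 5 CPM filter and 5 with DMSO_KLA as control. Il12a did not pass the 5 CPM filter and was not tested there, and Il27 fell under the fold threshold. Without a fold threshold 1 gene each was called for WT_IL4 and NKO_IL4 against vehicle and for the difference of the NCoR effect between poly I:C and vehicle. With only the compared groups, calls became 0 for WT_IFNb, 1 for WT_RANKL and 1 for NKO_RANKL. Il27 in NKO_KLA reversed to -0.47, -0.53 and -0.74 against the KLA, Pgc1b_flox_KLA and DMSO_KLA libraries, and the Il12b Cre difference reversed to 5.09 without Pgc1b_flox_Cre_Veh replicate 2 (0 counts remain at vehicle) and was called, at -1.82, without replicate 1. The Il12a to Il27 ratio change was -1.98 with 3 added. The Il12a to Il12b change was -0.99 in the 3 tables with shared stamps. The causes were not tested. Correlations of same-numbered deviations lay between -0.0596 and 0.0591, so the numbers did not pair libraries. The replicate block left the Il12a to Il12b change at -1.48 (exact permutation, adjusted p = 0.0656) and changed no count of subunit genes called.

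Leaving out 1 library, counts ranged from 0 to 2 for the Cre difference, 2 to 3 for the NCoR difference between KLA and poly I:C, 0 to 1 for that between poly I:C and vehicle, 2 to 4 for NKO_KLA against WT_KLA, 3 to 4 for NKO_PolyIC and 1 to 3 for NKO_RANKL against NKO_Veh, 1 to 2 for NKO_Veh against WT_Veh, 2 to 3 for Pgc1b_flox_Cre_KLA against Pgc1b_flox_KLA, and 0 to 1 for WT_IFNb, 0 to 1 for WT_IL4 and 1 to 3 for WT_RANKL against WT_Veh. Without WT_Veh replicate 1, Il12b was called lower in NKO_Veh (-3.32) and WT_IL4 (-3.10). For WT_IFNb against WT_Veh, Il12b was called in 1 of the 4 fits that left out 1 library. The Il12a to Il27 ratio change ranged from -0.65 to 0.15.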
